A study of Homo sapiens with 26 samples.

Results

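The 10 enzymes described here make asparagine, serine and proline or run the mitochondrial branch of folate metabolism, and all of them have been described as targets of the transcription factor ATF4. They were chosen by name and function, as the rows Asns, Phgdh, Psat1, Psph, Shmt2, Mthfd2, Mthfd1l, Aldh1l2, Aldh18a1 and Pycr1, and all 10 were found among the 55353 gene rows of the input files. The RNA came from SK-MEL-28, an established human melanoma line grown in RPMI medium with serum and either kept in salubrinal for 72 h or left untreated. Salubrinal blocks the removal of phosphate from the translation factor eIF2α and so switches on the integrated stress response (ISR). Of the 26 samples, 13 were treated with salubrinal and 13 were untreated controls. The labels give cycloheximide at 100 µg/mL for 12 min for the input samples as well as for the gradient samples. Input RNA gave 1 library per treatment. Lysates spun through sucrose gradients of 5 to 20% gave 40S, 60S, 80S and polysome fractions, pooled from smaller ones, with 3 replicates per fraction and treatment. In the labels each sample carries its own numbered cell-line name, but every title says SK-MEL-28, which is used here.

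When phosphorylated eIF2 lowers general protein synthesis, the mRNA of ATF4 is translated more, and ATF4 then binds, with partners of the C/EBP family, to promoter elements of genes for amino acid supply. Serine is made from a glycolysis intermediate in 3 steps, and mitochondria split serine to feed the folate cycle with single carbon units, which go into purines, thymidylate and the formylated initiator of mitochondrial translation. Asparagine is made from aspartate and glutamine, and proline from glutamate.

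The salubrinal input held 10245548 counts on gene rows and the control input 12068784. The 2 input files carry mouse-style row names although the cells are human, and 30615 of the 55353 names are of the Gm or Rik kind. The sources used here do not say which annotation the rows come from, so levels are compared within a row only. Whether 0 or few counts on a row mean that its RNA was absent was not tested. Of 7 melanocytic marker rows, Pmel had 13535 counts with salubrinal and 16793 in the control, Mlana had 0 in both, and Tyrp1 had 0 and 5. Of the 5 melanocytic rows with at least 50 counts, 4 (Pmel, Mitf, Sox10 and Dct) were lower by 2-fold or more, beside 3.8% of all rows with at least 50 counts. The other, Tyr, had 1524 counts with salubrinal and 963 in the control, a log2 ratio (salubrinal over control) of -0.04. Summed over the list, the 7 melanocytic rows stood at 1326 CPM (library-scaled counts) with salubrinal and 2708 CPM in the control. Most of both sums was Pmel, at 953 CPM with salubrinal and 1928 CPM in the control. Markers of fibroblasts (Col1a1, Col1a2, Dcn), immune cells (Ptprc) and endothelium (Pecam1) had at most 3 counts in either library, and of the keratinocyte rows Krt5 had 3 and 3 counts and Krt14 had 20 and 3. Their part in the results was not tested.

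With salubrinal all 10 enzyme rows had a higher CPM than in the control, and 6 of them passed 2-fold: Asns, Aldh1l2, Mthfd2, Psat1, Psph and Phgdh. Of all 10614 rows whose counts over both libraries came to 50 or more, 2.75% passed 2-fold upward with salubrinal and 3.8% passed it downward. Of the 6851 rows with 200 or more, which include all 10 enzymes, 2.06% passed it upward. A log2 ratio above 0 was held by 5524 of the 10614 rows. Among the enzymes, that of Aldh18a1 did not differ from 0 beyond counting error. The median log2 ratio of the 10 rows, salubrinal over control, was 1.15, beside 0.02 for the 10614 rows. Summed, the 10 rows stood at 1154 CPM with salubrinal and 423 CPM in the control, and without Asns at 799 and 384 CPM. CPM are counts scaled by the trimmed mean of M values (TMM), which sets the bulk of rows at no change. With 1 input library per treatment there is no replicate check and no test, and the intervals below are exact binomial ones at 95% that cover counting error only. The values are shares of the RNA in each library, so less of one transcript per cell and fewer cells that carry it cannot be told apart.

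**Figure D1:**
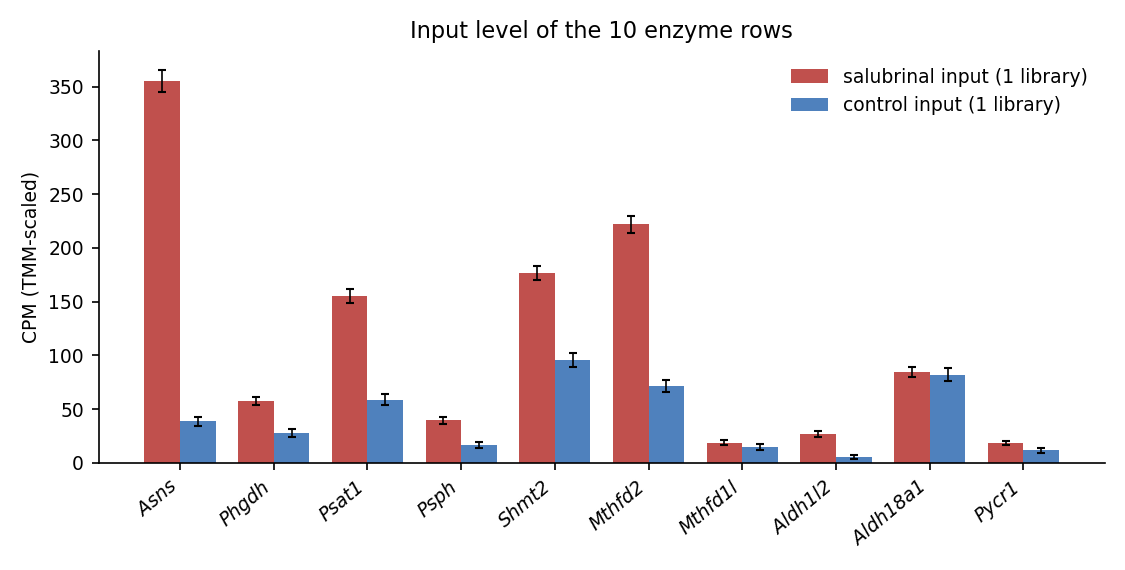
TMM-scaled CPM of the 10 enzyme rows with salubrinal (left bar of each pair) and in the control (right bar), 1 library each, with exact Poisson 95% intervals as error bars. Asns stands at 355 CPM with salubrinal and 38.6 CPM in the control, while the bars of Aldh18a1 stand at 84.4 and 82.0 CPM.

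Asns, which encodes asparagine synthetase, had 5042 counts with salubrinal and 336 in the control, or 355 and 38.6 CPM. Its log2 ratio of 3.20 (3.04 to 3.37), a 9.17-fold difference, was exceeded by 3 of the 10614 rows. The human ASNS gene lies on chromosome 7, and its promoter is known for an element that responds to ATF4. The RefSeq promoter windows, 250 bases before to 50 after a gene start on build GRCh38.p14, were searched on both strands for TGATGNAA, the core of such elements. The windows of ASNS and MTHFD1L are shown because they were the ones among the enzymes that held the motif, which is in capitals; both read 5′ to 3′ along the gene's own strand. The ASNS window is chr7:97872359-97872658 on the minus strand, and the MTHFD1L window is chr6:150866236-150866535 on the plus strand.
ASNS: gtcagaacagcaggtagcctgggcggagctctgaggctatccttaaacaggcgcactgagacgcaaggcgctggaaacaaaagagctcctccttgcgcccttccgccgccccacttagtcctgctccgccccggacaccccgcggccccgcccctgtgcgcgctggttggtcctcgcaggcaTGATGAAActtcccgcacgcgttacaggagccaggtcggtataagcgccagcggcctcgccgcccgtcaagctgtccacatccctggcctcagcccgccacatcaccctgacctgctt
MTHFD1L: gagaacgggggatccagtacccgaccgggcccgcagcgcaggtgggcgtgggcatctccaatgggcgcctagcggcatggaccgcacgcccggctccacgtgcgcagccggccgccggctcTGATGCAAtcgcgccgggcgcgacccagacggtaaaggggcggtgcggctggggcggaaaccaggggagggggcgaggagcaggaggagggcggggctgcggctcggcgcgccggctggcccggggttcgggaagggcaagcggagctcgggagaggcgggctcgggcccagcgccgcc
In ASNS the match TGATGAAA began 68 bases before the gene start, and in MTHFD1L the match TGATGCAA began 129 bases before it. Windows were found for 6 of the 10 genes; those of PHGDH, PSAT1, MTHFD2 and ALDH18A1 held no match, and PSPH, SHMT2, ALDH1L2 and PYCR1 had no entry. ASNS has a second entry, from another start, that held none, and MTHFD1L has 4 entries, of which 3 overlap at the same match. Seen from the starts of these 3 entries, the match began 129 bases before, 90 bases before and 24 bases after. Of all 35116 promoter entries, 3.62% held the motif, and of the 27305 genes with an entry, 4.46%. A match describes letters only. The gene with the highest input ratio and one of the lowest ratios both held it. In these windows MTHFD2, PSAT1 and PHGDH, with log2 ratios above 1, held none, and neither did ALDH18A1, with 0.04. Whether the motif bears on the ratios was not tested.

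The 3 enzymes that make serine all stood above 2-fold. Phgdh, which encodes the dehydrogenase that draws phosphoglycerate out of glycolysis, had 816 counts with salubrinal and 241 in the control, or 57.5 and 27.7 CPM, a log2 ratio of 1.05 (0.85 to 1.27). Psat1, the transaminase of the middle step, had 2204 and 510 counts, or 155 and 58.6 CPM, a log2 ratio of 1.40 (1.27 to 1.55). Psph, the phosphatase that releases serine, had 563 and 145 counts, or 39.7 and 16.6 CPM, a log2 ratio of 1.24 (0.99 to 1.53). Neither Psat1 and Psph nor Psph and Phgdh differed beyond counting error. Summed, they stood at 252 CPM with salubrinal and 103 CPM in the control. Phgdh was exceeded by 258 of the 10614 rows, Psph by 160 and Psat1 by 104.

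The 4 mitochondrial folate enzymes were spread far more widely. Aldh1l2, which encodes the mitochondrial dehydrogenase that burns formyl-tetrahydrofolate to carbon dioxide and NADPH, had 379 counts with salubrinal and 49 in the control, or 26.7 and 5.63 CPM, a log2 ratio of 2.21 (1.81 to 2.71) that 15 rows exceeded. Mthfd2, the methylene-tetrahydrofolate dehydrogenase and cyclohydrolase of mitochondria, had 3150 and 620 counts, or 222 and 71.2 CPM, a log2 ratio of 1.64 (1.52 to 1.77). Shmt2, the mitochondrial serine hydroxymethyltransferase that splits serine into glycine and a carbon unit, had 2507 and 836 counts, or 177 and 96.0 CPM. Its log2 ratio of 0.88 (0.77 to 0.99) was below 2-fold and exceeded by 458 rows. Mthfd1l, the synthetase that releases formate from mitochondria, had 266 and 129 counts, or 18.7 and 14.8 CPM, and its log2 ratio of 0.34 (0.03 to 0.65) lay just above the upper quartile of all rows (0.32), with 2498 rows above it. Among these 4, the step that burns formyl units had the highest ratio and the step that releases formate the lowest.

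Both proline enzymes were below 2-fold, Aldh18a1 at the bulk of rows and Pycr1 above it. Aldh18a1, which encodes the synthase that turns glutamate into pyrroline carboxylate, had 1198 counts with salubrinal and 714 in the control, or 84.4 and 82.0 CPM, a log2 ratio of 0.04 (-0.09 to 0.18) whose interval includes 0. Pycr1, the mitochondrial reductase of the last step, had 262 and 102 counts, or 18.5 and 11.7 CPM, a log2 ratio of 0.65 (0.32 to 1.00) that 940 rows exceeded. Together they stood at 103 CPM with salubrinal and 93.7 CPM in the control. For the 4 mitochondrial folate enzymes the sums were 444 CPM with salubrinal and 188 CPM in the control. Only the treatments are compared within each sum, not the levels of different rows.

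**Figure D2:**
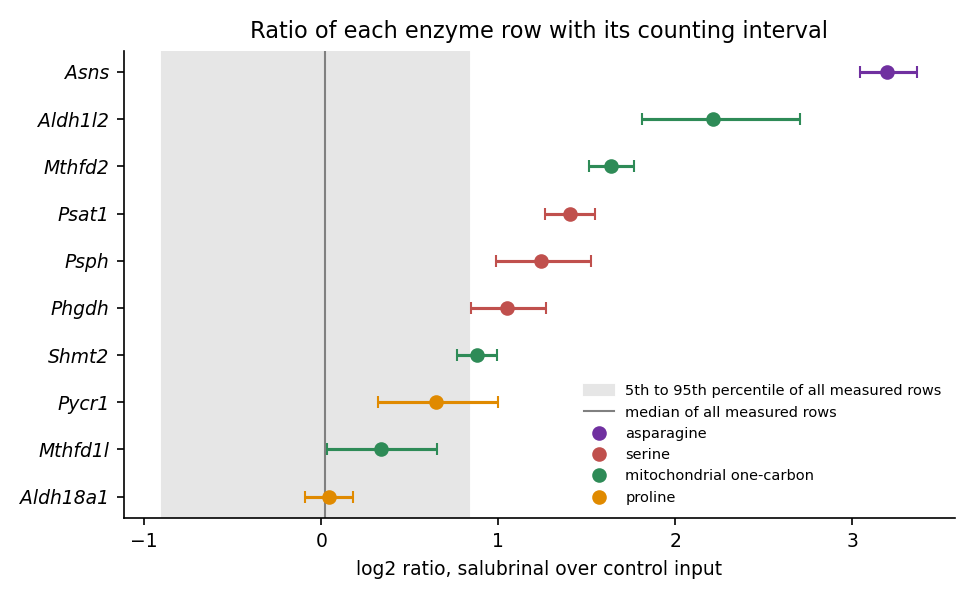
Log2 ratio of the salubrinal over the control input for each enzyme row, in order, with exact binomial 95% intervals for counting error and colours by pathway. The grey band is the 5th to 95th percentile of all 10614 measured rows (-0.90 to 0.83); 7 rows lie above it, and Pycr1, Mthfd1l and Aldh18a1 lie inside it.

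In the order of ratios, Asns, Aldh1l2 and Mthfd2 each exceeded the next row beyond counting error. From Psat1 down through Psph, Phgdh, Shmt2, Pycr1, Mthfd1l and Aldh18a1, no difference between neighbours went beyond it. Each such difference is a ratio of 2 ratios and so does not depend on how the libraries are scaled. Asns exceeded Aldh1l2 by 0.96 on the log2 scale (0.47 to 1.42), Aldh1l2 exceeded Mthfd2 by 0.61 (0.15 to 1.08), and Mthfd2 exceeded Psat1 by 0.23 (0.04 to 0.42). The intervals of the next 6 differences include 0, the nearest to excluding it being Mthfd1l over Aldh18a1 at 0.30 (-0.04 to 0.64). Rows further apart within this run were not compared in this way. The intervals of the log2 ratios at its ends, Psat1 (1.27 to 1.55) and Aldh18a1 (-0.09 to 0.18), do not overlap. From end to end, Asns exceeded Aldh18a1 by 3.16 (2.95 to 3.37).

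**Figure D3:**
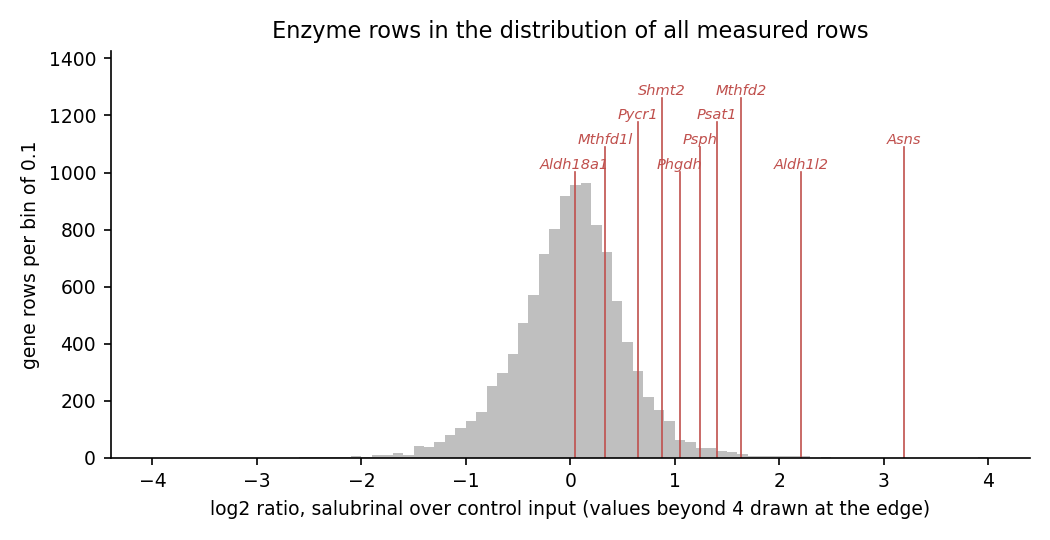
Number of gene rows (y axis, bins of 0.1) by log2 ratio of the salubrinal over the control input (x axis) for the 10614 rows with at least 50 counts, with a red line at each enzyme row. Aldh18a1 falls in the bin next to the highest one, and Asns, at 3.20, falls at its far right.

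The 2 measured paralogs of these enzymes, Shmt1 and Mthfd1, stood near the bulk of rows. Shmt1, the cytosolic serine hydroxymethyltransferase, had 263 counts with salubrinal and 197 in the control, a log2 ratio of -0.29 (-0.56 to -0.01), and Shmt2 exceeded it by 1.17 (0.87 to 1.46). Mthfd1, the cytosolic enzyme that joins the activities of the folate interconversions, had 1547 and 894 counts, a log2 ratio of 0.09 (-0.03 to 0.21). Mthfd2 exceeded Mthfd1 by 1.55 (1.38 to 1.73), while Mthfd1l exceeded it by 0.25 (-0.08 to 0.59), an interval that includes 0. Mthfd2l had 9 and 10 counts, Pycrl 2 and 2, and Aldh1l1, the cytosolic counterpart of Aldh1l2, 0 and 0, so these rows could not be set against their partners.

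Other genes of the same pathways, from 5 lists of 37 genes in all, mostly stood near the bulk of rows. Of these, 4 had 0 counts in both libraries and 7 had fewer than 50. Of the 26 measured at 50 counts or more, 3 passed 2-fold upward, 1 passed it downward, and the median log2 ratio was 0.04. Over all 10614 rows, 2.75% passed it upward and 3.8% downward. The 3 were Cth, Cbs and Gpt2. Cbs and Cth, which encode the pair of enzymes that pass the sulfur of homocysteine to serine to make cysteine, had 149 counts with salubrinal and 31 in the control, a log2 ratio of 1.51 (0.99 to 2.17), and 82 and 12 counts, a log2 ratio of 1.94 (1.19 to 3.08). Gpt2, the mitochondrial alanine transaminase, had 382 and 99 counts, a log2 ratio of 1.23 (0.92 to 1.58).

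Within the list of glycine cleavage and serine use, Gldc, the decarboxylase that starts glycine cleavage, had 735 counts with salubrinal and 230 in the control, a log2 ratio of 0.97 (0.76 to 1.19), while Gcsh and Dld, which encode other proteins of the same complex, stood at -0.18 and -0.06. Of the 10 measured folate cycle genes, 0 were 2-fold apart, and they ran from -0.67 for Fpgs, which adds the glutamate tail that keeps folates in the cell, to 0.28 for Slc25a32, the mitochondrial folate carrier. Mtfmt, which formylates the mitochondrial initiator tRNA, had 139 and 82 counts and a log2 ratio of 0.06, and Sfxn1, a mitochondrial serine transporter, stood at -0.52. Of the 8 measured genes that supply glutamate, aspartate and ornithine, Got1, the cytosolic aspartate transaminase, stood at 0.80 (0.62 to 0.99), and Got2, its mitochondrial counterpart, at -0.02 (-0.26 to 0.22). Asrgl1, an asparaginase and the 1 measured gene of the list for asparagine and proline breakdown, had 45 and 60 counts, a log2 ratio of -1.08 (-1.71 to -0.54).

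**Figure D4:**
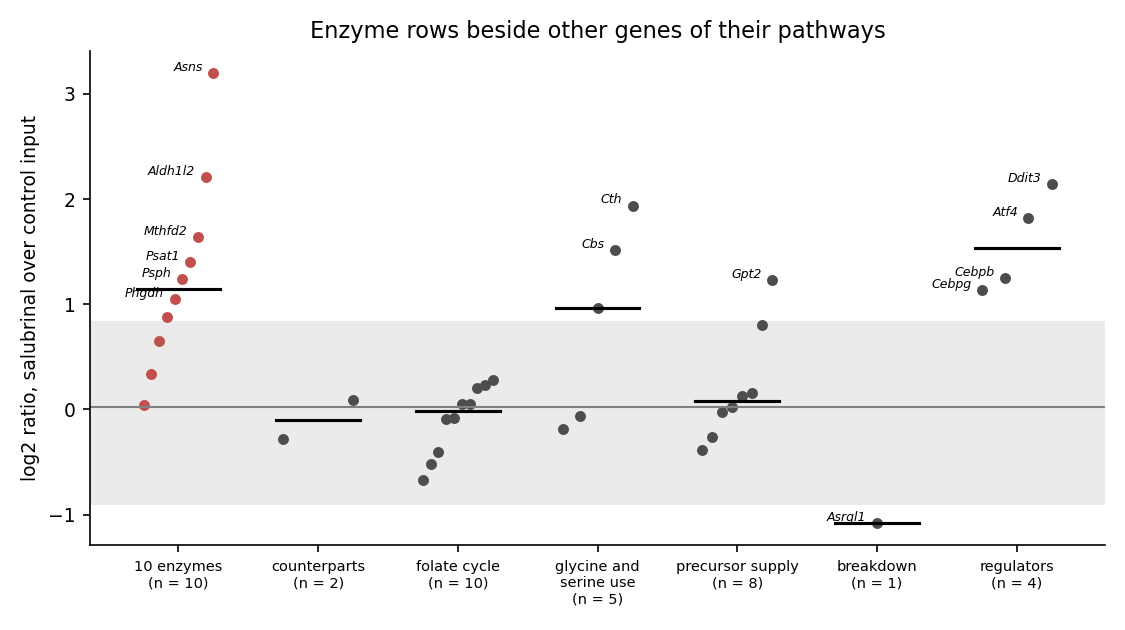
Log2 ratio of the salubrinal over the control input (y axis) for each measured row of the 10 enzymes, of the 5 lists of other pathway genes and of the ISR regulators, with list medians as black bars and the 5th to 95th percentile of all rows in grey. The median of the enzymes is 1.15 and that of the 10 measured folate cycle genes -0.01; rows at least 2-fold apart are named.

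Of the 5 ISR regulators, the 4 with at least 50 counts were all at least 2-fold higher with salubrinal, beside 2.75% of all 10614 rows. Atf4 had 6808 counts with salubrinal and 1184 in the control, a log2 ratio of 1.82, and Asns exceeded it by 1.38 (1.20 to 1.57). Ddit3, Cebpb and Cebpg, which encode C/EBP partners of ATF4, stood at 2.14, 1.25 and 1.14, and Atf3 had 40 and 3 counts. Their promoter windows held the searched motif in CEBPG, 42 bases before one of its starts, and in ATF3, 191 bases before one of its starts, and those of ATF4, DDIT3 and CEBPB held none. Of the 27 pathway genes outside the enzymes with a window, 1 held it, GOT1, on the opposite strand 198 bases before the start. The 5 rows nearest to the enzymes' median ratio, among 5985 candidates (rows with at least 200 counts that are none of the enzymes and carry no clone, Gm or Rik name) and over these 2 libraries, were Dcbld2, Xpot, Osbpl6, Rny1 and Tbc1d19, all within 0.0122 of it on the log2 scale.

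The gradient fractions held almost no counts of these enzymes. Before those values, 2 facts on the files apply. Counts outside ribosomal RNA (rRNA) rows were 873 to 23714 per file, and the 4 fraction files of a library did not differ there beyond sampling, at a chi-square per degree of freedom of 0.936 to 1.03 (lowest p = 0.0895), once the control 40S files titled replicates 1 and 2 were exchanged. As titled, the 4 control files numbered 1 gave 1.23 and those numbered 2 gave 1.47. The 3 replicates within a fraction gave 1.57 to 1.74 in the control and 7.51 to 8.15 with salubrinal. The fits of the 4 fractions below therefore rest on values that could not be told apart within a library, and are not separate pieces of evidence.

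Over the 12 salubrinal fraction files the 10 enzyme rows held 4 counts in all, and over the 12 control files 3. SHMT2 had 2 counts with salubrinal and 0 in the control, PHGDH had 1 and 0, PYCR1 had 1 and 1, and ALDH1L2 had 0 and 2. ASNS, PSAT1, PSPH, MTHFD2, MTHFD1L and ALDH18A1 had 0 counts in all 24 files. A count of 0 allows up to 3 counts, or 34.3 CPM outside rRNA over the salubrinal files and 14.8 CPM over the control files, counting error only. These limits presume that reads were counted on the gene's own strand, and the strand setting is not stated. Salubrinal replicate 3 held 73598 of the 87524 counts outside rRNA over the salubrinal files. None of the rows passed the low-count filter of edgeR, so no fraction gave a test of them. Without the filter, edgeR's quasi-likelihood test took in 1 or 2 of the rows per fraction and called 0; SHMT2 in 80S was the one at an unadjusted p under 0.05 (adjusted p = 0.598), and DESeq2 called 0, with 0 at that level. The rows of human pseudogenes named after ASNS, PSAT1, PSPH and MTHFD2 also had 0 counts.

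Counts did fall on a row next to MTHFD2. On chromosome 2 its 3′ end overlaps that of SLC4A5, which encodes a sodium bicarbonate cotransporter and lies on the opposite strand, and the SLC4A5 row held 111 counts in the salubrinal and 94 in the control fraction files. In the inputs the Slc4a5 row had 1 count with salubrinal and 2 in the control. Whether the counts on the SLC4A5 row come from one gene or the other was not tested. The only other protein-coding overlap among the enzymes, NDUFA4L2 with SHMT2, had 0 counts with salubrinal and 1 in the control.

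In the order of replicates 1, 2 and 3, the SLC4A5 row had 2, 0 and 28 counts in the salubrinal 40S files, against 0, 13 and 8 in the control 40S files. The 60S files had 2, 0 and 25 with salubrinal, against 16, 2 and 9 in the control. The 80S files had 2, 1 and 26, against 8, 1 and 14, and the polysome files 1, 0 and 24, against 13, 2 and 8. Salubrinal replicate 3 stood above every control file in each fraction, in counts and as CPM outside rRNA (1301 to 1527 CPM, against at most 730 CPM in the control). Salubrinal replicates 1 and 2 are the libraries with the fewest counts. As CPM, replicate 1 stood above every control file in 40S (796 CPM), 60S (812 CPM) and 80S (783 CPM) on 2 counts each, and replicate 2 did in 80S (1007 CPM) on 1 count; in the other files neither did. With the 4 files of a library summed, salubrinal replicates 1, 2 and 3 stood at 689, 265 and 1399 CPM outside rRNA, against 578, 221 and 416 in the control, so the groups overlapped.

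edgeR's quasi-likelihood test called the SLC4A5 row higher in 40S, with a log2 fold change of 1.79 ± 0.45 (SE, n = 3 per group, adjusted p = 0.00524), where 8% of 225 tested rows were called. It was also called in 60S, at 1.31 ± 0.45 (edgeR adjusted p = 0.0407), where 9.83% of 234 rows were called. In polysome it did not pass, at 1.38 ± 0.47 (edgeR adjusted p = 0.0641; 3.73% of 241 rows were called), and in 80S, where 12.7% of 213 rows were called, it fell below the filter. In 80S it passed the filter when some replicates were left out: it was called without salubrinal replicate 1, at 1.75 (edgeR adjusted p = 0.0461), and without salubrinal replicate 2, at 1.65 (0.00567), and was not called without control replicate 1, at 1.33 (0.194), or 2, at 1.51 (0.0736). In the sum of the 4 files as titled it stood at 1.58 (edgeR adjusted p = 5.47e-05; 10.4% of 856 rows called). With the control 40S files exchanged, a step chosen after the file check, it stood at 1.55 ± 0.33 (edgeR adjusted p = 0.000313; 5.7% of 913 rows called). Both sums use the same counts as the fractions and are no further evidence. The calls depended on salubrinal replicate 3, which held 103 of the 111 counts: without it the edgeR values were 0.54 in 40S, 0.14 in 60S, -0.74 in polysome and 0.60 in the exchanged sum (adjusted p = 0.843, 0.95, 0.802 and 0.738). Leaving out control replicate 3 also ended the calls, at 1.61 in 40S (edgeR adjusted p = 0.164), 0.96 in 60S (0.627) and 1.43 in the exchanged sum (0.133). In 60S the call was also lost without salubrinal replicate 1, at 1.34 (0.306), and without control replicate 1, at 1.71 (0.169), or 2, at 1.20 (0.181), values near the 1.31 of all 3 replicates or above it. DESeq2, and edgeR without the filter, called it in none of 40S, 60S and polysome, and in the exchanged sum DESeq2 gave 0.78 (adjusted p = 0.988).

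**Figure D5:**
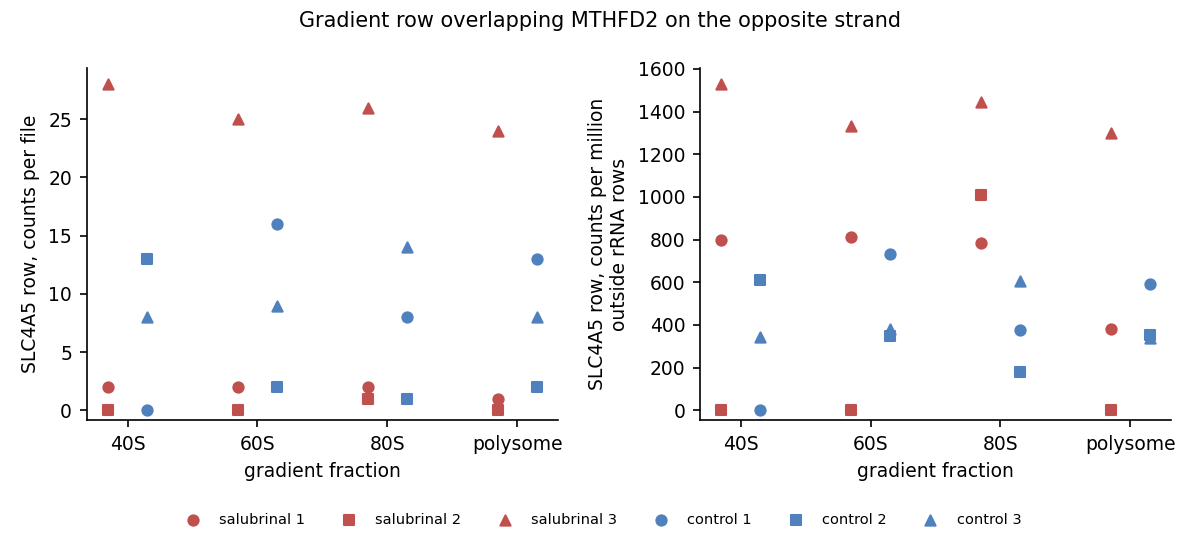
Counts of the SLC4A5 row per file (left) and as CPM outside rRNA rows (right) in each gradient fraction, with salubrinal files left of control files and the marker shape giving the replicate as titled. Salubrinal replicate 3, at 24 to 28 counts, lies above all other files, and the other salubrinal files lie at 0 to 2 counts.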

How the data were processed

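The deposited values are raw read counts per gene row. The submitters' processing notes name HTSeq 0.5.3p3, DESeq, SAMtools 0.1.19.24, FastQC 0.11.5, STAR and build hg19. For the strand setting and for the reference behind the mouse-style input rows, nothing is stated in the labels or file headers. Libraries were made with a stranded TruSeq kit for total RNA, per the labels' protocols.

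Rows that name no gene were left out. In the inputs, gene rows held 7.06% of all counts with salubrinal and 5.94% without it. Reads not aligned were 27.3% of all counts with salubrinal and 14.4% in the control. The TMM factors were 1.39 with salubrinal and 0.72 in the control. Input ratios are log2 values from counts scaled by TMM, after adding a prior count of 2 (edgeR 4.0.16 in R 4.3.3), over rows with at least 50 counts. Differences between rows are exact conditional odds ratios. Gradient fractions were fitted apart over all rows (filterByExpr, TMM, robust quasi-likelihood, Benjamini-Hochberg 0.05), and standard errors are the log2 fold change over the normal deviate of its p. Whether the 3 replicates were grown as separate cultures is not stated, and p-values therefore cover only their own spread, which may be technical. The ratio and the fit were tested on simulated counts. For the sum of 4 fractions, the fit recovered 17% of planted log2 changes of 1, 86% of 2 and 100% of 3. That simulation used a single assumed spread for all rows and both treatments. The replicates within a fraction spread unequally, at a chi-square per degree of freedom of 7.51 to 8.15 with salubrinal and 1.57 to 1.74 in the control. The recovered shares may therefore not hold for these files. Overlaps and promoters come from RefSeq tables of GRCh38.p14, which differs from the authors' build.

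All 10 enzymes were named. Other pathway genes were named where at least 2-fold apart or as counterparts of an enzyme; Gldc, Gcsh, Dld, Fpgs, Slc25a32, Mtfmt, Sfxn1, Got1 and Got2 were chosen after their values were seen. The 5 most alike rows were those with at least 200 counts nearest to the enzymes' median, and gradient rows were those overlapping an enzyme gene. A pair of listed genes is not reported here. The enzymes and lists were chosen with earlier results of these data known. Alternatives were other scalings, prior counts, filters, DESeq2 1.42.0, a replicate block and leaving out replicates.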

Additional observations from a re-analysis of the deposited data

How the results depend on the processing

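Under RLE size factors, a prior count of 0.5, or TMM without rRNA, mitochondrial and top rows, all 10 ratios stayed inside their counting intervals and 6 rows were at least 2-fold higher. Scaling by total gene-row counts moved the median of all rows to 0.95, against 0.02 with TMM. The enzymes' median was then 2.08 and 9 were at least 2-fold higher, beside 45.5% of all rows, and 11 other pathway genes were at least 2-fold higher; all 10 enzymes stayed above the median of all rows under that scaling. A single row with a clone name took 12.8% of gene-row counts with salubrinal and 56.7% in the control. Requiring 200 counts left 19 pathway genes, of which 1 was at least 2-fold higher, and moved the median of all rows to 0.05, above Aldh18a1 at 0.04. Without Asns, a choice made with the values known, the enzymes' median was 1.05.

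In the gradient, DESeq2 and edgeR without the filter tested 1 or 2 enzyme rows per fraction and called 0. With the replicate block, or with a replicate left out, 0 enzyme rows passed the filter, so those fits tested none and say nothing about them. Same-numbered polysome libraries deviated together only weakly (correlations 0.05, 0.08 and 0.12 over 585 rows), though each correlated best with its own number, a hint from the data and not from the design. With the block, edgeR called 4 polysome rows against 9 without it, 15 against 27 in 80S, 9 against 23 in 60S and 0 against 18 in 40S (29 at an unadjusted p under 0.05). The 40S block uses the numbers as titled; with control replicates 1 and 2 exchanged, chosen after seeing the data, it also called 0 (37 at an unadjusted p under 0.05). The SLC4A5 row under the block stood at 1.92 in 40S (edgeR adjusted p = 0.349; 1.74 and 0.136 exchanged), 1.33 in 60S (0.16) and 1.45 in the exchanged sum (0.0458). Leaving out a replicate gave the SLC4A5 row values of -0.74 to 1.5 in polysome, negative without salubrinal replicate 3; the cause was not tested. In 60S its call was lost in 9 of 10 alternatives that gave a value. With 7 counts on the 10 enzyme rows over all 24 files, the fractions cannot show a difference in any of the 10. ASNS held 0 counts there, beside 355 CPM for Asns in the salubrinal input. The limit of 34.3 CPM outside rRNA with salubrinal presumes counting on the gene's own strand, which is not stated. These CPM rest on different row names and scalings, and why the fractions held so few counts was not tested.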
